A study of Mus musculus with 6 samples.

Results

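The genes described here write, maintain or remove DNA methylation, and they were measured in lung adenocarcinoma cells given the compound PTC-209. The members were named one by one: Dnmt1, Dnmt3a, Dnmt3b, Uhrf1, Uhrf2, Hells, Tet1, Tet2, Tet3 and Tdg. Of these 10 genes, 9 have a probe set that the platform annotation gives to that gene alone, out of 19937 named genes on the array. For a gene with several such probe sets, the one that was brightest on average across the 6 arrays stands for it. Tdg, the glycosylase that cuts out oxidised methylcytosine, has no such probe set, because all 4 of its probe sets are shared with the pseudogene Tdg-ps2, and it gets no value here.

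The cells are A316, a mouse primary adenocarcinoma line that the labels describe as a cebp alpha knock out, so both groups lack the same gene and both received the same vehicle. In the treated group, 3 arrays hold RNA of cells given PTC-209, labelled as a Bmi inhibition, in 0.5% DMSO. In the control group, 3 arrays hold RNA of cells given 0.5% DMSO alone. All arrays come from 1 line. Neither a dose nor a duration of treatment is stated in the labels. They are also silent on whether replicate arrays stem from independent cultures, and the p-values then reflect the spread between these samples alone, which may be technical.

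DNA methylation in mammals is set down on cytosines of CpG dinucleotides. The de novo enzymes DNMT3A and DNMT3B place new marks, while DNMT1 copies the pattern onto the daughter strand behind the replication fork, guided there by UHRF1, which reads hemimethylated DNA, and helped by the chromatin remodeller HELLS (also called LSH). UHRF2 is a paralog of UHRF1. The TET enzymes oxidise methylcytosine, and TDG with base excision repair then restores plain cytosine. Tumours often lose methylation over the genome and gain it at CpG islands, many of them Polycomb targets.

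The promoters of Dnmt1, Uhrf1 and Hells are shown first because these are the genes of the group that fell with PTC-209, and Tet3 because it is the gene that rose. All sequences are from RefSeq (GRCm38.p6) and run 5′ to 3′ on the gene's strand. Those of Uhrf1, Hells and Tet3 end at the last base before an annotated transcript start. Capitals mark a match to an E2F word, that is TTTCCCGC, TTTCGCGC, TTTGCCGC or TTTGGCGC on either strand. The E2F family, which holds activators and repressors, controls many S phase genes. For Dnmt1 only 30 bases around the match before the start are shown, since this start lies downstream of other annotated starts of the gene. The Uhrf1 start shown also lies downstream of another annotated Uhrf1 start, and the window of that other start holds no E2F word.
Dnmt1, chr9:20952824-20952853, minus strand: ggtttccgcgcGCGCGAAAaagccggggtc
Uhrf1, chr17:56304063-56304312, plus strand: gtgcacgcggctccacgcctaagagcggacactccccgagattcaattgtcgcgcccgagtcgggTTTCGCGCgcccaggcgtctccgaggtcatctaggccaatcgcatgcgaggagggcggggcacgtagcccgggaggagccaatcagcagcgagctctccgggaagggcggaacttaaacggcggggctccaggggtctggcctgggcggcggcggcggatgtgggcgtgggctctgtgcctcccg
Hells, chr19:38930740-38930989, plus strand: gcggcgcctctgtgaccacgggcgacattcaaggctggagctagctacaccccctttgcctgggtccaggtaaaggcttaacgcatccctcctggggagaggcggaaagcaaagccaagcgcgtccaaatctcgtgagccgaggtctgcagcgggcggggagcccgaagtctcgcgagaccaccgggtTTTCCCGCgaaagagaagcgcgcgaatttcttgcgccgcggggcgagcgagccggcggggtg
Tet3, chr6:83441679-83441928, minus strand: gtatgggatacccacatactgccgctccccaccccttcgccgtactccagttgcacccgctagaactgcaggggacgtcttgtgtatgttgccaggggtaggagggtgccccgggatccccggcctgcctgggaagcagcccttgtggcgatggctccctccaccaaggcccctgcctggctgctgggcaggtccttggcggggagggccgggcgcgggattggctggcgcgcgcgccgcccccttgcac

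The RefSeq table holds 15 starts for the 10 genes, each with 250 bases before and 50 after the start. An E2F word was found at 3 of these starts, 1 each of Dnmt1, Uhrf1 and Hells, and at none of the starts of the other 7 genes. The Dnmt1 window holds a second match 34 bases after the start. Over all 32851 windows of the table, 2.3% hold such a word. Counted by named gene with a promoter in the table, the share is 3.48%. Every E2F word contains CG, so a CpG-rich window has more places for a match. The matching windows of Dnmt1, Uhrf1 and Hells hold 33, 33 and 34 CpG, against a median of 7 over all windows. The Tet2 window, with 57 CpG, has no match. Among named genes with a promoter in the table, a word was present for 7.22% of genes that were lower with PTC-209, 3.37% of genes that were higher and 2.76% of genes that passed in neither direction. The part that CpG content plays in these shares was not tested. A match describes letters in the window and is not a measured binding site.

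With PTC-209, the maintenance genes Dnmt1, Uhrf1 and Hells fell, by 3.21- to 5.52-fold, Tet3 rose 2.03-fold, and the other 5 measured members did not pass the test. Differences were tested with limma on the log2 values, PTC-209 minus DMSO, with the Benjamini-Hochberg adjustment taken across the 28192 tested probe sets. An adjusted p under 0.05 was the threshold for a call. Thus 3 of 9 members fell, where 13.7% of all named genes fell, and 1 of 9 rose, where 12.9% of all named genes rose. In either direction 4 of 9 passed, against 26.6% of all named genes. The median log2 difference was -0.18 over the 9 members and 0.03 over all named genes. The PTC-209 and DMSO arrays did not overlap for 6 of the 9, against 40.5% of all named genes. In bulk RNA, fewer cells of a kind and less RNA per cell cannot be told apart.

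**Figure D1:**
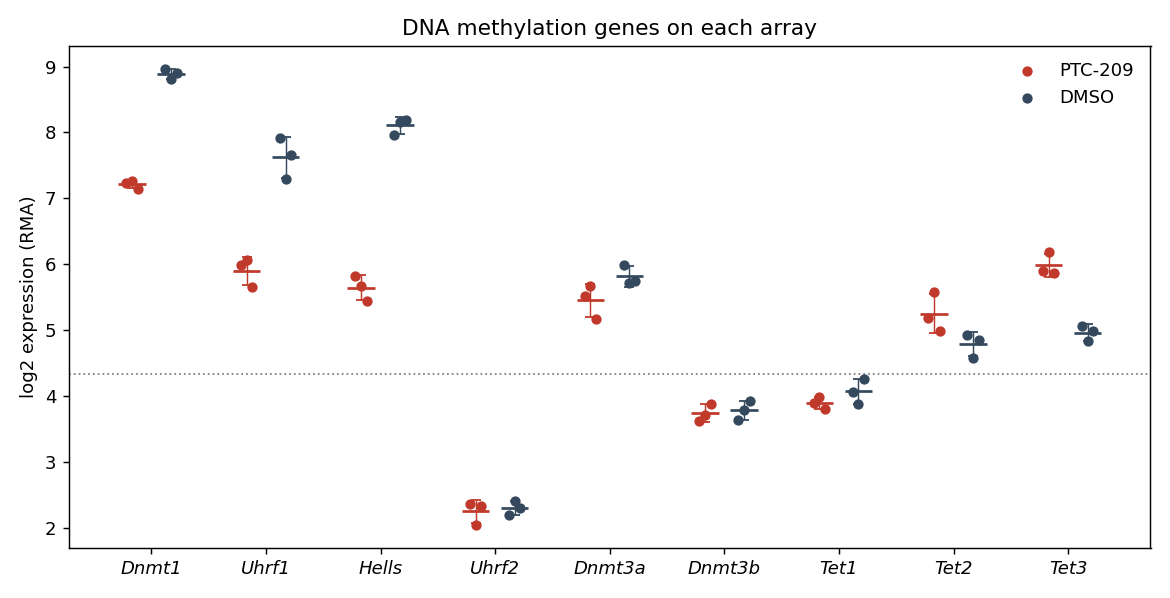
Log2 expression (RMA, vertical axis) of the 9 measured genes on each array, with PTC-209 in red left of DMSO in dark blue. Points are arrays, bars are the mean and SD of 3 arrays, and the dotted line is the median brightness of all tested probe sets, 4.33. The PTC-209 points of Dnmt1, Uhrf1 and Hells lie well below their DMSO points, those of Tet3 lie above, and Uhrf2, Dnmt3b and Tet1 lie under the line in both groups.

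Hells, which encodes the SNF2-family remodeller that opens nucleosomal DNA to the methyltransferases, had the largest difference of the 9 genes. Its log2 values were 5.82, 5.67 and 5.45 on the PTC-209 arrays, against 7.97, 8.16 and 8.20 on the DMSO arrays. All treated arrays were low and all control arrays high, with a wide gap between the groups. The level was 5.52-fold lower with PTC-209 (log2 difference -2.46, SE 0.12, 95% interval -2.74 to -2.19, limma adjusted p = 1.01e-06). Ordered by log2 difference from the largest fall, Hells stood at position 88 of the 19937 genes.

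Uhrf1, the hemimethylated-DNA reader and ubiquitin ligase that recruits DNMT1, followed. It measured 5.98, 6.06 and 5.66 on the PTC-209 arrays and 7.92, 7.29 and 7.66 on the DMSO arrays. Of the probe sets that stand for the members, this one had the widest spread of DMSO arrays (SD 0.31). Even so, the lowest DMSO array was above the highest PTC-209 array. The level was 3.30-fold lower (log2 difference -1.72, SE 0.17, interval -2.10 to -1.34, limma adjusted p = 6.12e-05), at position 294 from the largest fall.

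Dnmt1, the maintenance methyltransferase, measured 7.23, 7.27 and 7.15 on the PTC-209 arrays and 8.96, 8.81 and 8.91 on the DMSO arrays. Arrays within each group lay close together, with an SD of 0.059 with PTC-209 and 0.074 with DMSO. Dnmt1 was 3.21-fold lower (log2 difference -1.68, SE 0.093, interval -1.89 to -1.47, limma adjusted p = 1.94e-06), at position 313 from the largest fall. The calls of Hells, Uhrf1 and Dnmt1 held under each of the 14 alternative settings, including leaving out any 1 array.

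Uhrf2, the paralog of Uhrf1, was dim. Its values were 2.36, 2.04 and 2.33 on the PTC-209 arrays and 2.19, 2.41 and 2.30 on the DMSO arrays, and the groups overlapped (log2 difference -0.05, interval -0.32 to 0.21, limma adjusted p = 0.819). Both groups lay far under the median brightness of the tested probe sets, 4.33. The change of Uhrf1 minus the change of Uhrf2, computed within arrays, was -1.67, nearly all of it the change of Uhrf1 itself, since Uhrf2 was dim in both groups. The two-sided exact permutation test gave p = 0.1, which is the smallest that 3 arrays against 3 allow, and 0.125 after adjustment over the 5 pairs of paralogs compared, so no pair could pass.

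The de novo methyltransferases showed smaller differences. Dnmt3a measured 5.52, 5.67 and 5.17 on the PTC-209 arrays and 5.99, 5.71 and 5.74 on the DMSO arrays. The groups did not overlap, but the highest treated array and the lowest control array were only just apart, and the gene did not pass (log2 difference -0.36, SE 0.14, interval -0.68 to -0.04, limma adjusted p = 0.105). Without PTC-209 replicate 3, the lowest treated array, the Dnmt3a difference was -0.22 (adjusted p = 0.312). Dnmt3b measured 3.62, 3.72 and 3.88 on the PTC-209 arrays and 3.64, 3.78 and 3.93 on the DMSO arrays. These dim values overlapped almost fully (log2 difference -0.04, interval -0.30 to 0.21, limma adjusted p = 0.853). The change of Dnmt3b minus the change of Dnmt3a was 0.32, about the spread between arrays (exact permutation p = 0.5). It was 0.11 without PTC-209 replicate 3 and 0.16 without DMSO replicate 1 (exact permutation p = 0.9 each).

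**Figure D2:**
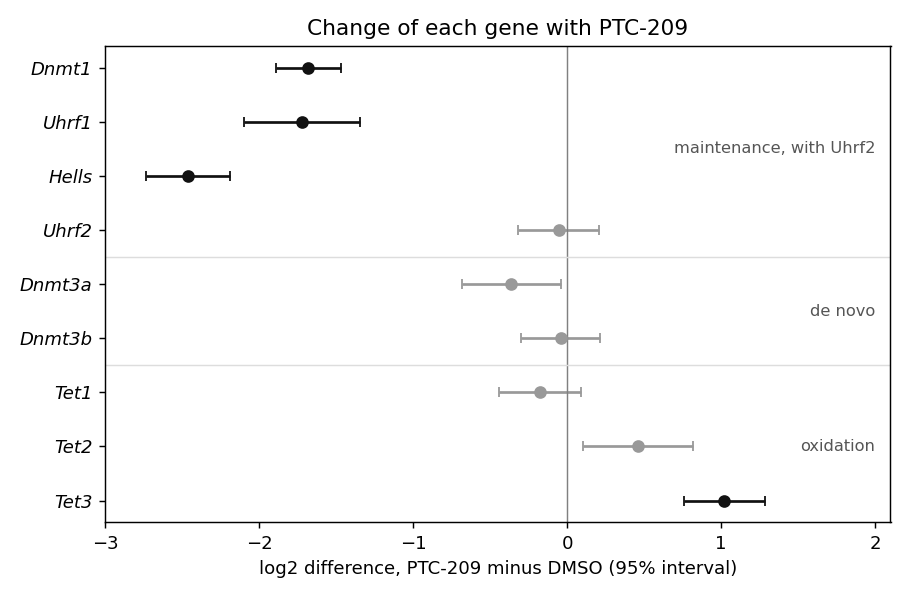
Log2 difference, PTC-209 minus DMSO, of the 9 genes (horizontal axis) with limma's 95% interval as the bar. Black marks adjusted p under 0.05 and grey marks genes that did not pass. Hells, Uhrf1 and Dnmt1 lie between -2.46 and -1.68, Tet3 lies at 1.02, and the intervals of Uhrf2, Dnmt3b and Tet1 cross 0.

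Of the methylcytosine dioxygenases, Tet3 rose. Its brighter probe set measured 5.90, 6.18 and 5.87 on the PTC-209 arrays and 5.07, 4.83 and 4.99 on the DMSO arrays. Every treated array was above every control array, and the level was 2.03-fold higher (log2 difference 1.02, SE 0.12, interval 0.76 to 1.29, limma adjusted p = 0.000174). Tet3 stood at position 416 from the largest rise. A second Tet3 probe set, not used for the count, measured 5.81, 5.88 and 5.16 with PTC-209 and 4.94, 5.00 and 4.40 with DMSO. Array 3 was the low one in both groups, the groups did not overlap, and the probe set rose too (log2 difference 0.84, SE 0.21, limma adjusted p = 0.0179).

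Tet2, which encodes the dioxygenase best known for its loss in myeloid neoplasms, measured 5.18, 5.57 and 4.99 on the PTC-209 arrays and 4.92, 4.58 and 4.85 on the DMSO arrays. The treated arrays were higher without overlap, but PTC-209 replicate 3 lay near the DMSO values and the gene did not pass (log2 difference 0.46, SE 0.16, interval 0.10 to 0.82, limma adjusted p = 0.0657). It passed without PTC-209 replicate 3 (log2 difference 0.59, adjusted p = 0.0312) and when dim probe sets were left out of the test (adjusted p = 0.0363), and its adjusted p ran from 0.0312 to 0.572 over the alternatives. The difference was smaller, at 0.30, without PTC-209 replicate 2 (adjusted p = 0.208), the brightest treated array, and 0.36 without DMSO replicate 2 (adjusted p = 0.203).

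Tet1 has 3 probe sets and all were dim. The brightest measured 3.90, 3.99 and 3.80 on the PTC-209 arrays and 4.07, 3.88 and 4.26 on the DMSO arrays, with overlap (log2 difference -0.18, interval -0.44 to 0.09, limma adjusted p = 0.364). The Tet1 difference was -0.08 without DMSO replicate 3, -0.27 without DMSO replicate 2 and -0.03 with its probe sets averaged, and it passed in none of these. The other Tet1 probe sets differed by 0.09 and 0.01, also with overlap. Computed within arrays, the change of Tet1 minus that of Tet3 was -1.20, and the change of Tet1 minus that of Tet2 was -0.64, with Tet1 dim in both groups. The change of Tet2 minus that of Tet3 was -0.56. None of these 3 pairs overlapped between groups, and each had the smallest exact permutation p, 0.1 (0.125 adjusted over the pairs).

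**Figure D3:**
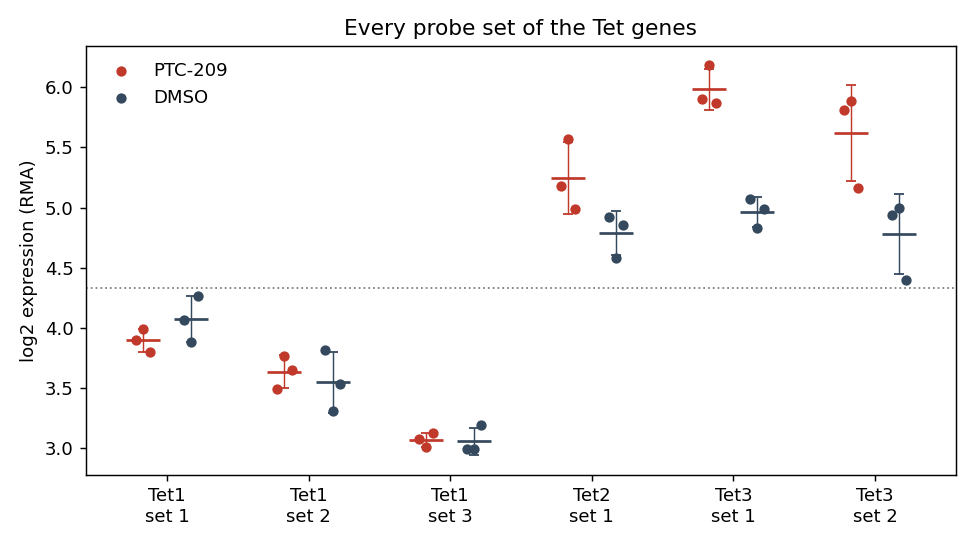
Log2 expression (RMA, vertical axis) of every probe set of Tet1, Tet2 and Tet3 on each array, numbered from the brightest, with PTC-209 in red left of DMSO in dark blue. Bars are the mean and SD of 3 arrays and the dotted line is the median brightness, 4.33. Both Tet3 sets are higher with PTC-209, and the 3 Tet1 sets overlap under the line.

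The genes with the most similar profile to a member were sought by the root mean square difference of log2 values over the 6 arrays, each gene taken relative to its own mean. For Dnmt1 they were Elovl6, a fatty acid elongase (0.0436), Aurka, a mitotic kinase (0.0452), and Atp10a, a lipid flippase (0.0496). For Uhrf1 they were Cit, the citron kinase of cytokinesis (0.08), Kif18b, a mitotic kinesin (0.0921), and Ano1, a chloride channel (0.117). For Tet2 they were Ticam1, a Toll-like receptor adaptor (0.0755), Fam118a (0.0934) and Setd1a, a histone H3 methyltransferase (0.0936). With 2 groups on 6 arrays, such a likeness mostly reads a similar change with PTC-209.

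The fall of the maintenance genes stood beside a fall of S phase genes, a list that names the DNA synthesis machinery. Over all named genes 13.7% fell and 12.9% rose, shares that belong beside the counts of this and every later list. Of 20 measured S phase genes, 19 fell and 0 rose (0 also at an unadjusted limma p under 0.05), with a median log2 difference of -1.71, near the differences of Dnmt1 and Uhrf1. The mean of the list was 6.54 to 6.63 on the PTC-209 arrays and 8.25 to 8.37 on the DMSO arrays. Rrm2, of ribonucleotide reductase, fell by 3.23 on the log2 scale and Gins1, of the replicative helicase, fell by 2.74. The gene that did not pass was Cdt1, a licensing factor (log2 difference 0.11, limma adjusted p = 0.719). The part that S phase content plays in the levels of Dnmt1, Uhrf1 and Hells was not tested.

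Among 16 partners of the methyltransferases and of UHRF1, 6 fell, 2 rose and 8 did not pass (median -0.12). The rises were near the share of all named genes that rose, 12.9%, while 13.7% of all named genes fell. Lig1, the replicative ligase that also binds UHRF1, fell by 2.57 on the log2 scale, and Cdca7l, a paralog of the HELLS partner Cdca7, by 0.98. Cdca7 itself fell by 0.50 (limma adjusted p = 0.0125). Zbtb24, which with HELLS and CDCA7 is mutated in a human syndrome of centromeric hypomethylation, rose by 0.74 (limma adjusted p = 0.0006). Dppa3, whose product keeps UHRF1 from chromatin in the oocyte, rose by 0.71 but was dim, at 3.79 with PTC-209 and 3.08 with DMSO. Lig1 and Pcna also stand in the S phase list. With a required fold change above 1.2 the falls numbered 3, and without dim probe sets the rises numbered 1.

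Of 7 measured methyl-CpG readers 1 rose, 1 fell and 5 did not pass (median 0.22). Both counts were near the shares over all named genes, 12.9% for rises and 13.7% for falls. Zbtb38, a zinc finger protein that binds methylated DNA, fell by 0.92 on the log2 scale (limma adjusted p = 0.000332). Mbd4, both a reader and a thymine glycosylase, rose by 0.39 (limma adjusted p = 0.021). The list kept its rise without DMSO replicate 1, but had 0 rises without each of the other 5 arrays in turn and with a required fold of 1.2.

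Of 8 measured TET partners and suppliers of 2-oxoglutarate, the TET cosubstrate, 1 rose and 3 fell (median -0.32). Ogt, the glycosyltransferase that binds TET proteins, rose by 0.80 on the log2 scale (limma adjusted p = 0.00118). Cxxc5, a zinc finger protein related to the TET CXXC domain, was lower by a log2 difference of -0.49 and the isocitrate dehydrogenases Idh1 and Idh2 by -0.48 and -0.45. These falls were small, numbering 5 after cyclic loess and 0 when a fold above 1.2 was required.

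In the base excision repair list, 4 of 14 measured genes rose, 3 fell and 7 did not pass (median -0.03). The Gadd45 genes, stress-induced genes that have been linked to active demethylation, supplied most of the rises. Gadd45a rose by 3.42 on the log2 scale, Gadd45b by 1.67 and Gadd45g by 1.53, and Mbd4 is the remaining rise. Neil3, a glycosylase, fell by 2.30 on the log2 scale, the abasic endonuclease Apex1 by 1.27 and Parp1 by 0.90.

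The S-adenosylmethionine cycle supplies the methyl group that DNMT enzymes transfer. Of 13 measured genes in this list 8 rose and 1 fell, with a median of 0.58. The rises lay between 0.41 and 2.07 on the log2 scale and were led by Slc3a2, the heavy chain of amino acid transporters that carry methionine among others. The fall was of Mtap, which salvages methionine from methylthioadenosine (-1.21, limma adjusted p = 1.55e-05).

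**Figure D4:**
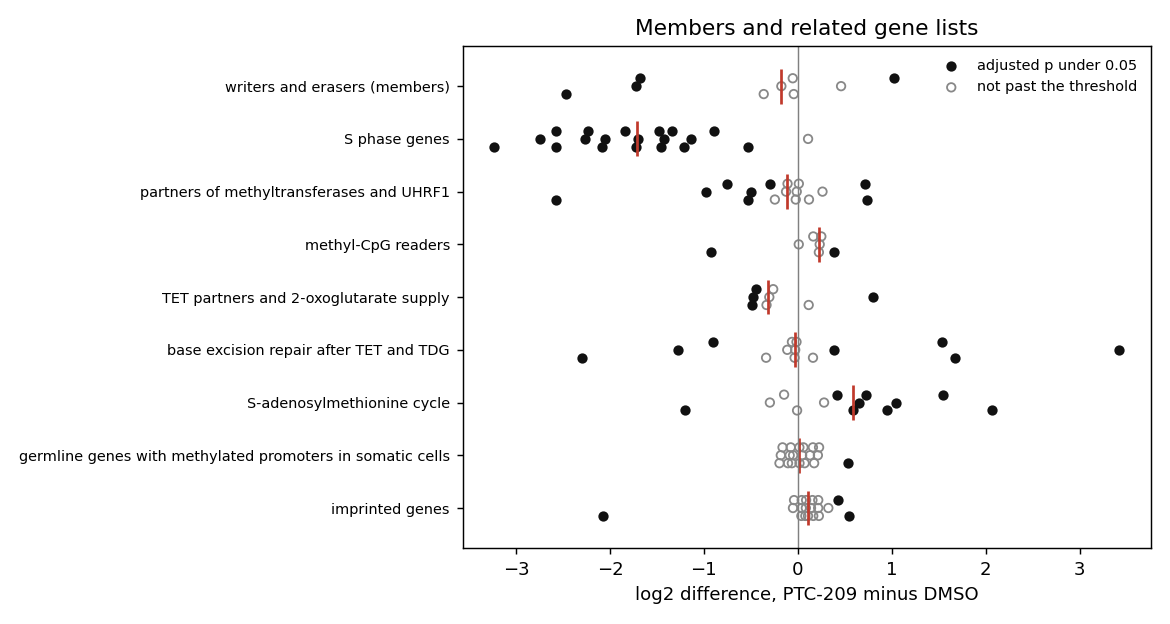
Log2 difference, PTC-209 minus DMSO (horizontal axis), of the 9 measured members and of each related gene list, 1 point per gene. Filled points have adjusted p under 0.05, open points do not, and the red bar is the median of the row. S phase genes lie almost wholly left of 0, the S-adenosylmethionine cycle mostly right, and germline and imprinted genes cluster near 0. Most germline and imprinted genes are below the median brightness in both groups.

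Promoter methylation is known to keep a set of germline genes silent in somatic cells, and imprinted genes are expressed from 1 parental allele under methylated control regions. Of 19 measured germline genes, 18 were below the median brightness in both groups, 1 rose and 0 fell, with a median of 0.02. At an unadjusted limma p under 0.05 the germline list also had 1 rise and 0 falls. The gene that rose was Taf7l, a germ cell TFIID subunit, at 3.71 ± 0.19 with PTC-209 and 3.17 ± 0.21 with DMSO (SD, n = 3 each, limma adjusted p = 0.0179), and it no longer passed without DMSO replicate 3, PTC-209 replicate 2 or PTC-209 replicate 3, or with a required fold of 1.2. Of 19 measured imprinted genes, 2 rose, 1 fell and 16 did not pass (median 0.11). Most were dim, with 13 of the 19 below the median brightness in both groups. Over all named genes 12.9% rose and 13.7% fell. Mest fell by 2.07 on the log2 scale, Igf2r was higher by 0.54 and Mcts2 by 0.43. The imprinted list had a single rise when DMSO replicate 2 was left out, and likewise for PTC-209 replicate 1, and 0 rises with a required fold of 1.2. DNA methylation itself was not measured on these arrays.

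The targeted genes and the identity of the cells were checked by their own probe sets. Bmi1 was lower with PTC-209, at 7.01 ± 0.08 against 7.55 ± 0.14 with DMSO (SD, n = 3 each, limma adjusted p = 0.00424), a call that ended with a required fold of 1.2 (adjusted p = 0.0942). Cebpa was dim at 3.79 ± 0.12 with PTC-209 and 3.65 ± 0.16 with DMSO, and whether its probes lie in the deleted part is not given. Of 7 epithelial markers 4 fell, the keratins Krt7, Krt8, Krt18 and Krt19, and 2 rose, Cdh1 and Cldn4. All were above the median brightness, their mean running from 8.90 to 9.04 on the PTC-209 arrays and from 9.47 to 9.53 on the DMSO arrays, and 5 of 6 alveolar and club cell markers, Nkx2-1 and Sftpc among them, were below the median brightness in both groups. Of the 6 leukocyte markers Ptprc was at 3.06 with PTC-209 and 3.17 with DMSO, and Cd68, a lysosomal protein, was the only one to pass, rising by 2.61. The endothelial marker Cdh5 was lower with PTC-209, at 8.15 against 9.48 with DMSO, while Pecam1, Kdr and Tek were dim. Among 7 fibroblast markers, 0 passed (1 at an unadjusted limma p under 0.05). Of these 7, 3 were below the median brightness in both groups. The others were not, such as Col1a1 at 5.02 with PTC-209 and 4.98 with DMSO.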

How the data were processed

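The authors deposited log2 expression values for 34760 probe sets on 6 Affymetrix arrays. Per the submitters' processing notes these come from RMA, with no version or genome build stated there. That they are log2 follows from their range. Because RMA brings the arrays to nearly one distribution, a change common to most transcripts would be hidden. A run of 6568 unannotated, consecutively numbered control probe sets was left out. Of the 28192 tested, 21640 had 1 symbol, 1321 several and 5231 none listed. Probe sets with several symbols name no gene. Groups came from the titles. A sample description that speaks of embryos was not used.

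Limma 3.58.1 in R 4.3.3 was fitted with treatment as the only term (lmFit, eBayes with a constant prior, 4 residual and 5.27 prior degrees of freedom). Arrays correlated at 0.992 to 0.996 within groups and 0.97 to 0.974 between groups. The members and lists were chosen with earlier results of these data known. All members were named, and from each related list, cell type markers aside, the largest rise, the 2 largest falls and any gene of a count of 5 or fewer. Cdca7 was named besides, as the partner of HELLS. The precision is limited by 3 arrays per group. Figures used matplotlib 3.10.9.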

Additional observations from a re-analysis of the deposited data

How the results depend on the processing

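The settings tried were cyclic loess, median centring, a prior both robust and trended, removal of dim probe sets, averaging a gene's probe sets, the replicate number as a block, a required fold of 1.2, keeping the control probe sets, and leaving out each array. The 3 falls among members remained 3 in each. The rises numbered 2 without dim probe sets, with Tet2 added, and 1 to 2 when single arrays were left out. The cause was not tested, beyond fewer probe sets or arrays in the test. Of 123 values of single members, 117 kept their direction and side of the threshold, 2, both of Tet2, passed newly, and 4 changed sign, all of dim genes that passed nowhere: Uhrf2 without DMSO replicate 2 (0.0013) or PTC-209 replicate 2 (0.048), and Dnmt3b without DMSO replicate 3 (0.029) or PTC-209 replicate 1 (0.016). Without single arrays Uhrf2 ran from -0.11 to 0.048 and Dnmt3b from -0.12 to 0.029. Tet1 minus Tet3 differed by -0.96 when probe sets were averaged, against -1.20. With the replicate block the members had 1 rise and 3 falls. The titles do not say that the numbers pair the arrays, so the block was kept as an alternative only. Deviations of same-numbered arrays correlated at 0.231, 0.0703 and 0.0733 for replicates 1, 2 and 3. Replicate 1 of either group correlated at -0.163 to -0.11 with the other numbers of the opposite group. Replicates 2 and 3 across groups gave 0.105 and 0.0708. Whether the replicate 1 arrays share a batch was not tested. With a required fold of 1.2, all named genes had 1270 rises and 1610 falls, against 2565 and 2741. Cyclic loess moved the median of all genes by -0.03.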
